A study of Bos indicus with 55 samples.

Results

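The miRNAs described here are bta-miR-103, bta-miR-107, bta-miR-191 and both arms of bta-miR-423 (bta-miR-423-5p and bta-miR-423-3p), 5 of the 1024 miRNA entries counted in extracellular vesicles (EVs) from cattle conceptuses. They were chosen by name because they often serve as reference miRNAs in EV work, not by a measured value. Earlier results of these data were known when the choice was made. Of the 1024 entries, 655 had a count in any library and 240 were abundant enough to be tested, and all 5 reference-type miRNAs were among the 240. Small RNA was sequenced from EVs that day-16 conceptuses, the embryos with their developing membranes, had released into culture medium during 6 h. The 28 libraries came from 12 nuclear transfer (NT) conceptuses (7 male, 5 female), 10 conceptuses from in vitro fertilisation (IVF; 3 male, 7 female) and 6 conceived in vivo after artificial insemination (3 male, 3 female). The design text gives the conceptuses as Bos taurus taurus, while the sample labels give Bos indicus throughout. No source used here names the donor cells of the NT conceptuses, so conceptus sex and donor cell line cannot be told apart within NT.

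miRNAs are short RNAs that guide Argonaute proteins to messenger RNAs, and bases near their 5′ end, the seed, set most of the pairing. A reference miRNA is one against which others are scaled in quantitative PCR. It serves that purpose only where its own level is even across the samples compared. miR-103 and miR-107 share a seed and differ by a single base near the 3′ end, and in human both lie in introns of pantothenate kinase genes. miR-191 lies with miR-425 in an intron of DALRD3 in human. miR-423-5p and miR-423-3p are cut from opposite arms of the same hairpin, which lies in NSRP1 in human.

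The deposited values were whole read counts, and library totals ran from 39263 (in vivo male replicate 2) to 603579 (NT female replicate 3). The 5 miRNAs together took between 0.287% of counts (IVF female replicate 4) and 2.27% (in vivo female replicate 2). Levels are given as CPM, read counts relative to library size, after scaling by trimmed mean of M values (TMM), which lines libraries up on the bulk of their miRNAs. The entries miR-2887 and miR-2904, whose sequences resemble ribosomal RNA, took 5.17% to 59.4% of counts in NT, 8.80% to 76.3% in IVF and 4.11% to 37.1% in in vivo libraries. Of 6 early embryo markers, miR-302b was counted in all 28 libraries, miR-302a, miR-302c, miR-302d and miR-371 in 19 to 26, and miR-367 in 1. The 5 epithelial markers of the miR-200 family were counted in 27 or 28 libraries. Markers of other sources were present too. The red blood cell miR-451 and miR-486 and the liver miR-122 were counted in 28 libraries each, and the red blood cell miR-144 in 4. The 5 white blood cell markers were counted in 16 (miR-223) to 27 (miR-150) libraries, and 4 muscle markers in 2 (miR-133b) to 27 (miR-1). In vesicle RNA, fewer vesicles from a source and less of a miRNA per vesicle cannot be told apart.

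miR-191 was the most even of the 5 and miR-423-5p the least even. Over the 28 libraries the standard deviation (SD) of log2 CPM was 0.64 for miR-191, 0.77 for miR-423-3p, 0.93 for miR-103, 0.97 for miR-107 and 1.41 for miR-423-5p. Within the 6 groups of type and sex, miR-423-3p was as narrow as miR-191, with SDs of 0.60 for miR-423-3p and 0.65 for miR-191. The median SD of the 240 tested miRNAs was 1.17, with a range of 0.36 to 2.80. miR-423-5p alone of the members lay above that median. With a prior count of 0.5 in place of 2, which widens the spread of sparse miRNAs, it ranked 114 of 240 and lay below the median. Ranked from the most even, miR-191 was number 13 of 240, miR-423-3p number 34, miR-103 number 62, miR-107 number 71 and miR-423-5p number 178. Counting error alone would give an SD of 0.0931 for miR-191, 0.0829 for miR-423-3p, 0.0880 for miR-103 and 0.0809 for miR-423-5p. For miR-107, with 0 to 30 counts a library, counting error alone would give 0.47.

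**Figure D1:**
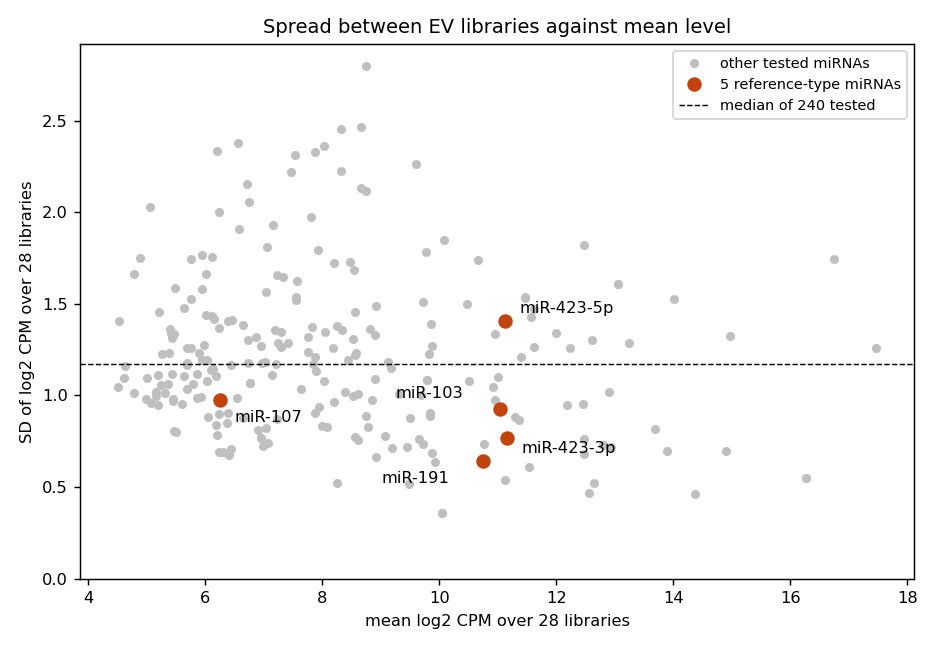
SD of log2 CPM (vertical axis) against mean log2 CPM (horizontal axis) over 28 libraries, with 1 point for each of the 240 tested miRNAs and the 5 reference-type miRNAs in colour. miR-191 (0.64) and miR-423-3p (0.77) lie well under the dashed median of 1.17, and miR-423-5p (1.41) lies above it.

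Setting each member beside tested miRNAs of like level, with a mean log2 CPM within 1 of its own, gave a similar order. miR-191 ranked 6 of 35, miR-423-3p 5 of 23 and miR-103 8 of 24. miR-107 ranked 23 of 92 and miR-423-5p 17 of 23. Of the 171 miRNAs at or above the mean level of miR-107, the least abundant member, the most even were miR-22-3p, at an SD of 0.36, miR-21-5p at 0.46, let-7i at 0.47 and miR-532 at 0.52. The entry miR-3600 had the same counts as miR-22-3p in all 28 libraries and is not a separate measurement. A list of 19 other miRNAs used as references was tested in full. Its median SD was 0.77, 12 of the 19 lay below the median of all tested miRNAs, and 3 (miR-21-5p, let-7i and miR-24-3p at 0.54) were more even than miR-191. Others on that list were uneven: let-7a-5p, a member of the abundant let-7 family, had an SD of 1.33 and ranked 159 of 240.

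miR-103, the abundant member of its pair, ran from 734 CPM in in vivo female replicate 3 to 6642 CPM in IVF female replicate 6, a 9.05-fold range. The lowest, median and highest levels were 840, 2100 and 6078.9 CPM in NT, 1293, 1972 and 6642 CPM in IVF, and 734, 1283 and 4109 CPM in in vivo libraries. The 3 types overlapped over most of their ranges. Mean levels were 2771 ± 1820 CPM in NT (SD, n = 12), 2867 ± 1856 CPM in IVF (n = 10) and 1664 ± 1248 CPM in in vivo EVs (n = 6). The log2 difference by edgeR's quasi-likelihood test was -0.02 for NT over IVF (95% interval -0.91 to 0.88, Benjamini-Hochberg adjusted p = 0.993). It was 0.76 for NT over in vivo (-0.26 to 1.79, adjusted p = 0.460) and 0.78 for IVF over in vivo (-0.30 to 1.86, adjusted p = 0.469). None passed the threshold of 0.05, and the intervals against in vivo reach beyond a 3-fold difference in the upward direction.

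The variation of miR-103 lay almost wholly among libraries of the same kind. The 6 groups of type and sex held 11.9% of the variance of its log2 CPM, where 18.5% would be the share of 6 groups that do not differ. Within groups its SD was 0.96. The tested miRNAs most like it over the 28 libraries were miR-223 (r = 0.89), miR-425-5p (r = 0.89) and miR-142-5p (r = 0.88), of 235 compared. miR-223 and miR-142-5p are markers of white blood cells. All 4 tested markers of that 5-member list followed miR-103, with r of 0.84 for miR-142-3p and 0.76 for miR-150. Of these, miR-223 was counted in only 16 of the 28 libraries, miR-142-3p in 22 and miR-142-5p in 24. Their r values thus rest partly on libraries with 0 counts of the marker. r was also above 0.5 for the red blood cell miR-451 (0.55) and miR-486 (0.51), the liver miR-122 (0.54), and miR-16b (0.76), miR-15b (0.74) and miR-16a (0.68) of the miR-15 group. For the 5 epithelial markers, r lay between -0.22 (miR-429) and 0.12 (miR-200a).

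The white blood cell list summed to between 0 and 6793 CPM in NT, 16.5 and 4215 CPM in IVF, and 25.5 and 3972 CPM in in vivo libraries, taken per library total without TMM. The NT library with 0 was female replicate 2, which also had the lowest NT level of miR-103 (840 CPM). NT female replicate 5 had the highest list sum and the highest NT level of miR-103 (6078.9 CPM). IVF female replicate 6 and in vivo female replicate 2 held the highest list sum of their types and, likewise, the highest miR-103. The low ends did not match in this way outside NT. The lowest IVF sum, in female replicate 4, went with 1679 CPM of miR-103, where the lowest IVF level was 1293 CPM, and the lowest in vivo level, 734 CPM in female replicate 3, went with a sum of 346 CPM. These correlations share the libraries' scaling and are given as a description. The part that blood cell RNA plays in the level of miR-103 was not tested.

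miR-107, which differs from miR-103 by that single base, was counted 280 times in all, against 9852 times for miR-103. Its counts ran from 0 to 30 a library with a median of 11. The lowest, median and highest levels were 12.4, 85.8 and 144 CPM in NT, 11.3, 92.8 and 201 CPM in IVF, and 0, 37.6 and 109 CPM in in vivo libraries. The ranges overlapped, and 5 of the 6 in vivo libraries lay below the medians of NT and IVF. In vivo male replicate 1 had 0 counts of 60682, which allows a level of up to 49.4 CPM of the library total (3 counts, counting error only). No source used here says how the authors' counting divides reads that match both miRNAs, so a share of miR-107 counts could come from miR-103 molecules or be lost to them.

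IVF over in vivo gave the largest type difference for miR-107, at 1.38 on the log2 scale by edgeR (95% interval 0.08 to 2.68, adjusted p = 0.259). NT over in vivo gave 0.85 (-0.38 to 2.08, adjusted p = 0.497) and NT over IVF -0.53 (-1.57 to 0.50, adjusted p = 0.704). None passed the threshold after adjustment. At a median of 11 counts a library, each of these intervals is over 2 log2 units wide.

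The log2 ratio of miR-103 to miR-107 within a library needs no scaling between libraries. It averaged 4.99 ± 0.79 in NT (SD, n = 12), 4.92 ± 1.17 in IVF (n = 10) and 5.39 ± 1.47 in in vivo EVs (n = 6), with a pseudocount of 0.5. Exact two-sided permutation tests found no type difference past the threshold among 8 ratio tests (adjusted p = 0.861 for NT against IVF, 0.562 for NT against in vivo and 0.562 for IVF against in vivo). These tests pooled the sexes, which are unequal in number in NT and IVF, whereas the edgeR type differences averaged the sexes. By sex the ratio averaged 5.52 in NT females, 4.62 in NT males, 5.35 in IVF females and 3.92 in IVF males. In vivo it was 4.88 in females and 5.91 in males. The SD of the ratio over all 28 libraries was 1.07. A list of 11 other products of the miR-15 and miR-107 group, opposite arms included, had 5 tested members: miR-15b, miR-16a, miR-16b, miR-424-3p and miR-503-5p. Their SDs lay between 1.08 and 1.28. Between types 0 of the 5 were called, where 0% to 1.25% of all 240 tested miRNAs were called.

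miR-191, the most even member, ran from 717 CPM (NT female replicate 2) to 4239 CPM (NT female replicate 4), a 5.91-fold range. Its lowest, median and highest levels were 717, 1810 and 4239 CPM in NT, 1071, 1703 and 2821 CPM in IVF, and 856, 1207 and 3798 CPM in in vivo libraries. The IVF libraries sat inside the ranges of both other types. Means were 2090 ± 1104 CPM in NT (SD, n = 12), 1742 ± 481 CPM in IVF (n = 10) and 1680 ± 1107 CPM in in vivo EVs (n = 6).

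The edgeR log2 differences of miR-191 were 0.34 for NT over IVF (95% interval -0.32 to 1.00, adjusted p = 0.704) and 0.35 for NT over in vivo (-0.38 to 1.09, adjusted p = 0.657). For IVF over in vivo the difference was 0.01 (-0.76 to 0.78, adjusted p = 0.997). These intervals leave room for differences of about 2-fold. Conceptus type held 3.95% of the variance of miR-191, against 7.41% for 3 types that do not differ, and the 6 groups held 16.9%. The highest level in the in vivo group, 3798 CPM in male replicate 3, came from its deepest library.

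Sequencing depth went with the level of miR-191. Over the 28 libraries its log2 CPM correlated with log2 library total at r = 0.61 (permutation p = 0.00063, adjusted over 10 relations 0.00315; rho = 0.44, adjusted p = 0.0515). Without the 2 libraries farthest from the median total, NT female replicate 3 and in vivo male replicate 3, r was 0.41. Within types r was 0.40 in NT, 0.46 in IVF and 0.95 in in vivo libraries. With DESeq2's size factors in place of TMM, r was 0.62 (permutation adjusted p = 0.00225). With library totals alone r was 0.24 (permutation adjusted p = 0.353). The relation thus passed the threshold under TMM and DESeq2's size factors but not with totals alone.

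The tested miRNAs most like miR-191 were miR-30d (r = 0.80), let-7g (r = 0.79) and miR-26c (r = 0.75). miR-425-5p, its neighbour in the human intron, was less like it (r = 0.60, rho = 0.63) and had an SD of 1.18. The ratio of miR-191 to miR-425-5p ranged from 1.21 to 11.6 across libraries. miR-103, which lies elsewhere in the human genome, kept a narrower ratio to miR-425-5p, with an SD of 0.57 on the log2 scale against 0.97 for miR-191. The entries miR-191b, with 79 counts in 20 libraries, and miR-425-3p, with 95 counts, were too sparse to test.

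**Figure D2:**
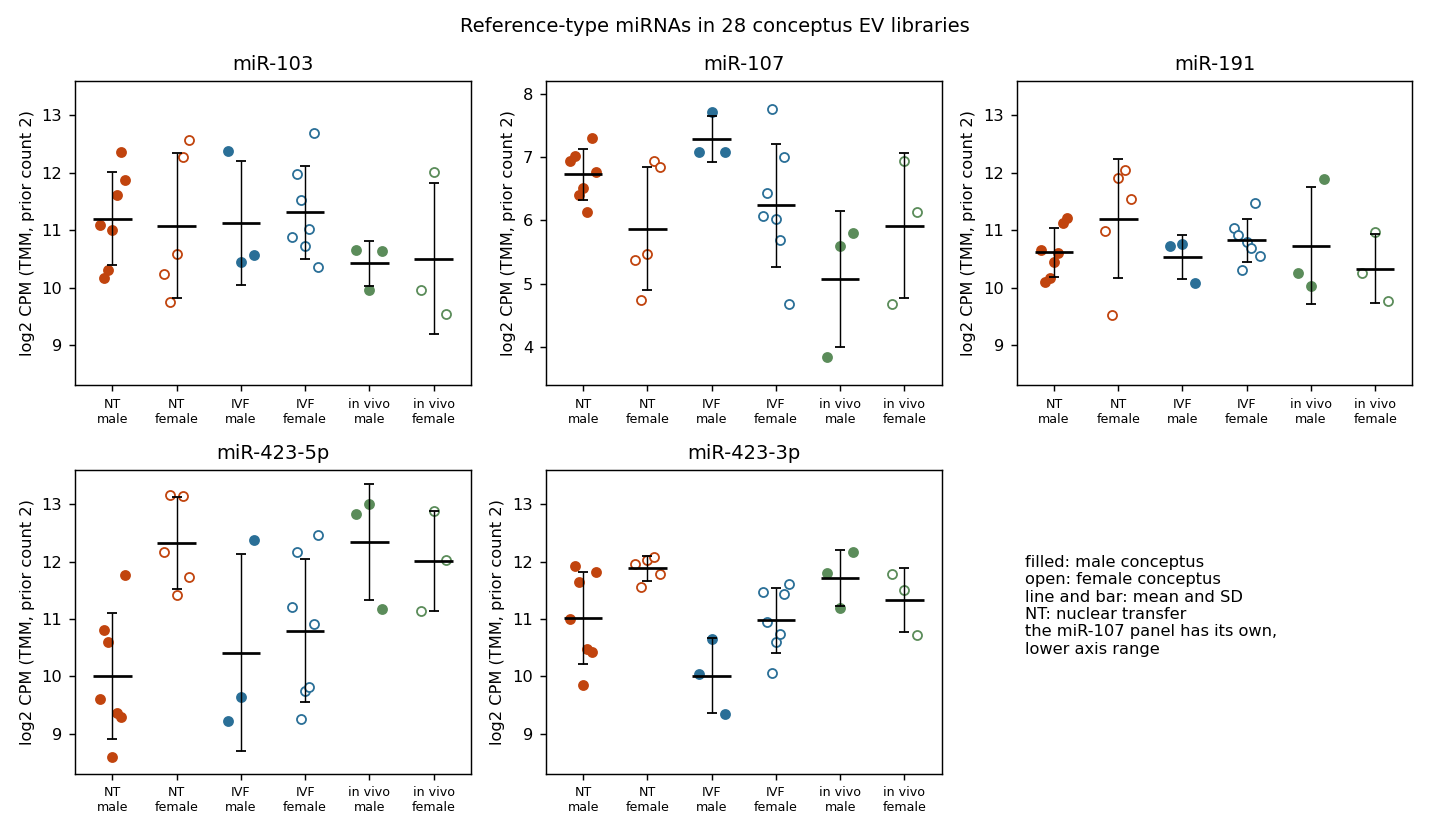
log2 CPM (TMM, prior count 2) of each reference-type miRNA in 28 EV libraries by conceptus type and sex, 1 point a library, with the mean and SD of each group. Over all 28 libraries miR-191 has the smallest SD (0.64), and 6 of the 7 NT male libraries lie below all 5 NT female libraries for miR-423-5p.

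miR-423-5p, an arm proposed as a reference in serum and plasma, was the most variable member. It ran from 370 CPM in NT male replicate 4 to 9170 CPM in NT female replicate 2, a 24.8-fold range. Lowest, median and highest levels were 370, 2246 and 9170 CPM in NT, 584, 1390 and 5646 CPM in IVF, and 2233, 5687 and 8237 CPM in in vivo libraries. The in vivo libraries all lay above the medians of IVF and all but 1 above that of NT, yet their range was contained in that of NT. Means were 3171 ± 3071 CPM in NT (SD, n = 12), 2346 ± 2052 CPM in IVF (n = 10) and 5279 ± 2723 CPM in in vivo EVs (n = 6).

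By edgeR the log2 difference of miR-423-5p was 0.25 for NT over IVF (95% interval -0.77 to 1.28, adjusted p = 0.913) and -0.93 for NT over in vivo (-2.03 to 0.17, adjusted p = 0.417). For IVF over in vivo it was -1.18 (-2.38 to 0.02, adjusted p = 0.297). This last value moved in both directions with single libraries. IVF male replicate 3, one of 3 libraries under 50000 counts, held 5294 CPM, against 584 and 779 CPM in the other IVF males. Without it the log2 difference was -2.06 and passed the threshold (edgeR adjusted p = 0.0375). Without IVF female replicate 4 the difference shrank to -0.82 (edgeR adjusted p = 0.638). Of 28 fits that each left out 1 library, 1 passed, and the difference ran from -2.06 to -0.82. Leaving out all 3 libraries under 50000 counts gave -1.87 and no call (edgeR adjusted p = 0.130). With log2 of the rRNA-like share as a covariate the difference was -1.21 (edgeR unadjusted p = 0.0288, adjusted p = 0.693). In the main fit its unadjusted edgeR p was 0.0530. limma voom with quality weights, which gives less weight to libraries that stray, gave -2.27 (adjusted p = 0.0115) with all libraries.

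miR-423-3p, the other arm, was even by comparison, from 633 CPM in IVF male replicate 3 to 4565 CPM in in vivo male replicate 3, a 7.21-fold range. Lowest, median and highest levels were 909, 3340 and 4318 CPM in NT, 633, 1641 and 3124 CPM in IVF, and 1667, 3200 and 4565 CPM in in vivo libraries. All 10 IVF libraries lay below the medians of the other two types, although the ranges overlapped. Means were 2939 ± 1202 CPM in NT (SD, n = 12), 1820 ± 843 CPM in IVF (n = 10) and 3081 ± 1023 CPM in in vivo EVs (n = 6).

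In the edgeR fit of all 28 libraries miR-423-3p had the lowest adjusted p of the members for NT against IVF, IVF against in vivo and the joint test. The edgeR log2 difference was 0.96 for NT over IVF (95% interval 0.32 to 1.61, adjusted p = 0.218) and -1.003 for IVF over in vivo (-1.74 to -0.27, adjusted p = 0.167). NT over in vivo gave -0.04 (-0.73 to 0.65, adjusted p = 0.978). Both IVF comparisons share the IVF libraries and neither passed after adjustment over the 240 miRNAs. The joint test of any type difference gave an adjusted p of 0.170 for miR-423-3p by edgeR. Conceptus type held 22.6% of its variance, the largest share among the members.

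No member passed the threshold in any comparison between types, and few miRNAs did at all. By edgeR, 1.25% of the 240 tested miRNAs (3) were called for NT against IVF, 0.417% (1) for NT against in vivo and 0% (0) for IVF against in vivo. The joint test of any type difference also called 0%. At an unadjusted p under 0.05 there were 24 miRNAs for NT against IVF, 27 for NT against in vivo, 39 for IVF against in vivo and 38 in the joint test. Of the members, 1 stood below that unadjusted level for NT against IVF (miR-423-3p) and 0 for NT against in vivo. For IVF against in vivo there were 2 (miR-107 and miR-423-3p), and in the joint test 1 (miR-423-3p). DESeq2 and limma voom called 0 miRNAs in both comparisons with NT. For IVF against in vivo DESeq2 called 13, no member among them, and voom 22, with miR-423-5p among the 22.

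The sizes of the members' differences can be read beside those of all tested miRNAs. The median absolute log2 difference over the 240 was 0.40 for NT against IVF, 0.62 for NT against in vivo and 0.65 for IVF against in vivo. miR-191 lay below that median in all 3 comparisons and miR-107 above it in all 3. miR-103 lay below it for NT against IVF and above it in both comparisons with in vivo. miR-423-5p lay below it for NT against IVF and above it in both comparisons with in vivo, and miR-423-3p lay above it in both comparisons with IVF. Over the list of 19 other reference miRNAs, the median signed difference was -0.06 for NT over IVF, 0.09 for NT over in vivo and -0.03 for IVF over in vivo. In the 3 comparisons 0 of the 19 were called, where 0% to 1.25% of the 240 were called.

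**Figure D3:**
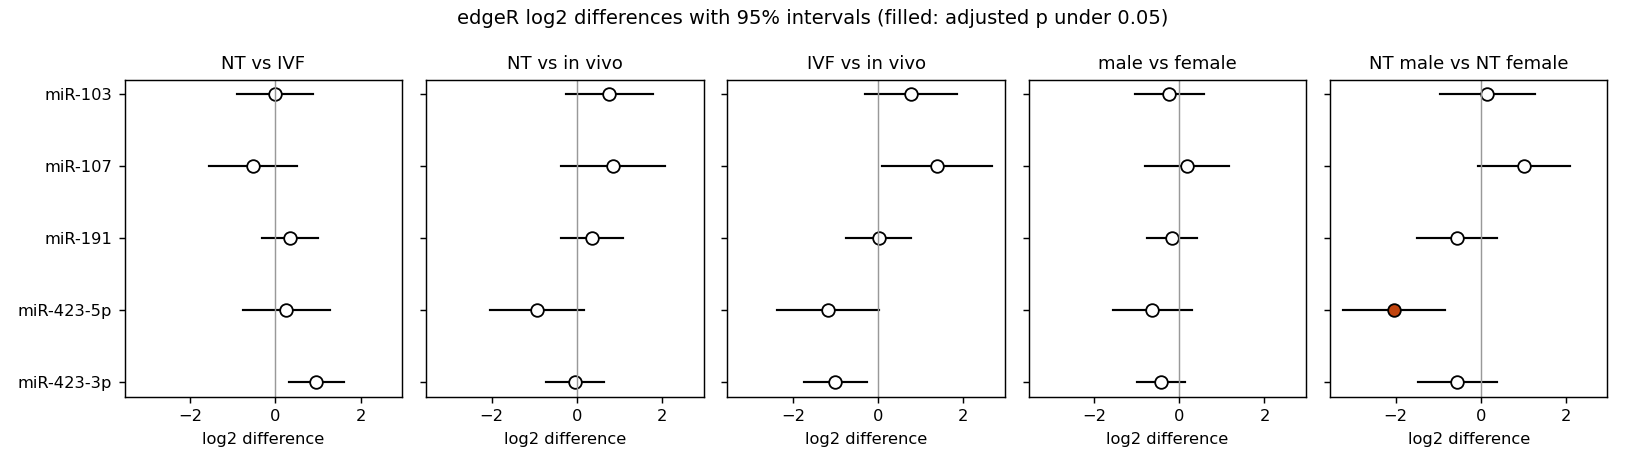
edgeR log2 differences of the 5 reference-type miRNAs with 95% intervals, 1 panel a comparison, filled where the adjusted p is under 0.05. The only filled point is miR-423-5p in NT male against NT female EVs, at -2.04.

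Male against female conceptuses, averaged over the 3 types, gave no call for any member or any other miRNA. edgeR, DESeq2 and limma voom each called 0 of 240 (0%), with 9 at an unadjusted edgeR p under 0.05 and no member among them. The log2 differences were -0.24 for miR-103, 0.18 for miR-107, -0.17 for miR-191, -0.63 for miR-423-5p and -0.43 for miR-423-3p, with adjusted p from 0.743 to 0.912. A test of whether type differences depend on sex called 0 miRNAs (0%) by all 3 tools, with 35 at an unadjusted edgeR p under 0.05. The smallest p among the members was that of miR-423-5p (edgeR unadjusted p = 0.047, adjusted p = 0.323), the 1 member among the 35.

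Within NT, miR-423-5p was lower in male than in female EVs. The 7 NT males ran from 370 CPM through a median of 768 to 3458 CPM, and the 5 NT females were at 4589, 9170, 2717, 9020 and 3390 CPM. Of the 7 males, 6 lay below every female, and the exception was male replicate 7 at 3458 CPM. Means were 1309 ± 1079 CPM in NT males (SD, n = 7) and 5777 ± 3102 CPM in NT females (n = 5). miR-423-5p fell 4.11-fold in NT males relative to NT females, a log2 difference of -2.04 by edgeR fitted on the 12 NT libraries (SE 0.57, 95% interval -3.25 to -0.83, adjusted p = 0.0233). In that fit 22.2% of the 180 tested miRNAs were called, 24 higher and 16 lower in NT males, and miR-423-5p was the 1 member among them. The median absolute log2 difference over the 180 was 0.99.

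The call for miR-423-5p moved with 2 libraries and with a property of the libraries. It was lost without NT male replicate 1 (log2 difference -1.86, edgeR adjusted p = 0.0584) and without NT male replicate 3 (-1.98, adjusted p = 0.0543). NT males had 30.3% to 59.4% of counts in the rRNA-like miR-2887 and miR-2904 (median 44.6%), and NT females 5.17% to 44.5% (median 24.4%). In the fit with log2 of that share as a covariate, 0 of the 180 miRNAs were called. The log2 difference of miR-423-5p was then -2.05, against -2.04 in the main fit, with an unadjusted edgeR p of 0.0049 against 0.0023. After adjustment over the 180 miRNAs the difference no longer passed the threshold (edgeR adjusted p = 0.174). It passed under DESeq2, voom, the other scalings and filters, the replicate block, the fit of all 28 libraries and leaving out any other NT library, with adjusted p of at most 0.0493 (without NT female replicate 4). The part of the rRNA-like share in the difference was not tested beyond this fit.

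Marker lists for the same libraries were as follows. The early embryo list summed to 451 to 5442 CPM of the library total in NT males and 124 to 1268 in NT females. By edgeR 3 of its 4 tested members (miR-302a, miR-302b and miR-371) were called, all higher in NT males. Of all 180 tested miRNAs 22.2% were called in either direction, 24 of them higher. In the early embryo list miR-367 alone of its 6 members was at 0 in all NT libraries. The epithelial list summed to 4195 to 34188 CPM in NT males and 19071 to 91110 in NT females, with none of its 5 members at 0 in either sex. Of these 5, 1 (miR-200c) was called, lower in NT males. Over all 180 tested miRNAs 22.2% were called in either direction, with 16 of the 180 lower. Over all 28 libraries, the log2 CPM of miR-423-5p had r = -0.69 with miR-302b and r = -0.70 with miR-371, as a description. Their part in the difference of miR-423-5p was not tested.

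The other members differed less within NT. miR-423-3p gave a log2 difference of -0.55 in NT males over NT females (SE 0.44, edgeR adjusted p = 0.376), and 4 of 7 males lay below all 5 females. miR-191 gave -0.56 (SE 0.44, adjusted p = 0.376), with all 7 males below the female median but none below all females. miR-107 gave 1.01 (SE 0.51, adjusted p = 0.150) and miR-103 0.15 (SE 0.53, adjusted p = 0.864). Over all 180 tested miRNAs 22.2% were called in either direction, with 16 of the 180 lower in NT males. Among the 19 other reference miRNAs, 17 were tested here and 2 were called, both lower in NT males. They were let-7a-5p (log2 difference -1.84, adjusted p = 0.0201) and miR-99b (-1.76, adjusted p = 0.0271).

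The arms of miR-423 changed their proportions from library to library. The log2 ratio of 5p to 3p counts ran from -1.40 in NT male replicate 1 (78 counts of 5p and 206 of 3p) to 3.05 in IVF male replicate 3 (351 and 42), so the ratio spanned 21.8-fold. The 5p arm outnumbered the 3p arm in 10 of 28 libraries. By type this was 3 of 12 NT, 3 of 10 IVF and 4 of 6 in vivo libraries. The mean log2 ratio was -0.41 ± 0.98 in NT (SD, n = 12), -0.01 ± 1.33 in IVF (n = 10) and 0.65 ± 1.17 in in vivo EVs (n = 6).

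Tests of the arm ratio between types also pooled the sexes. Exact two-sided permutation tests of the arm ratio gave a difference of -1.06 for NT minus in vivo (p = 0.060, adjusted over 8 tests 0.481). The difference was -0.40 for NT minus IVF and -0.66 for IVF minus in vivo, each with an adjusted exact p of 0.562. For male minus female a permutation test gave -0.51 (adjusted p = 0.562). No test of the arm ratio passed the threshold. Within NT the 7 males averaged -1.02 ± 0.44, none with the 5p arm ahead, and the 5 females 0.45 ± 0.89, with the 5p arm ahead in 3.

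**Figure D4:**
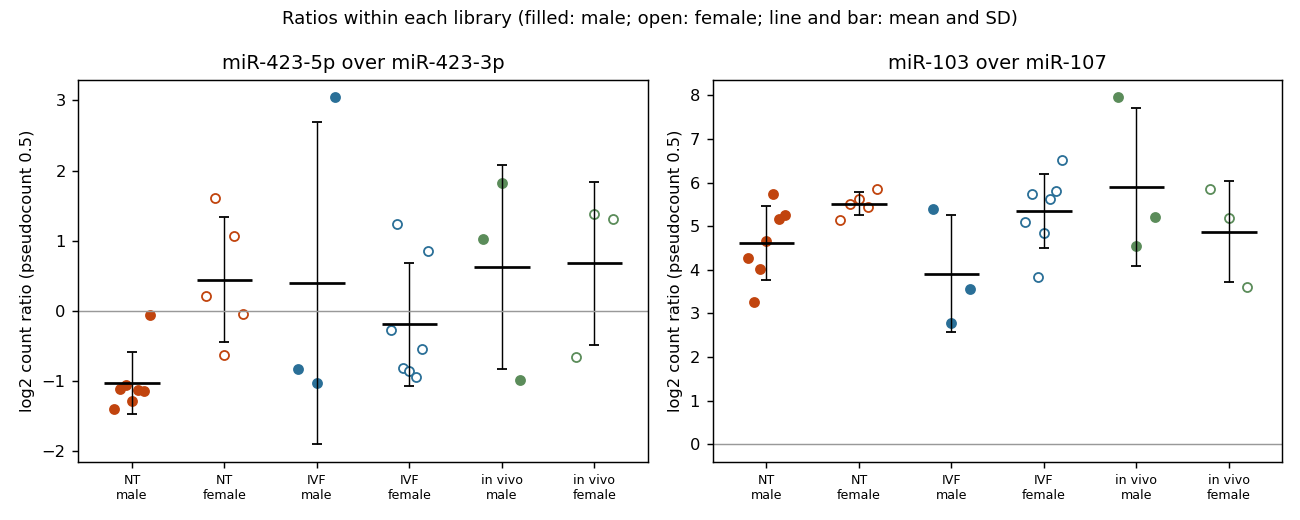
log2 count ratios within each library (pseudocount 0.5) of miR-103 to miR-107 and of miR-423-5p to miR-423-3p, by conceptus type and sex, with mean and SD. NT males cluster near -1 for the miR-423 arms except replicate 7 at -0.06, and IVF male replicate 3 stands apart at 3.05.

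miR-423-5p was lower where the rRNA-like entries took more of the library. Over 28 libraries its log2 CPM correlated with that share at r = -0.69 (permutation p = 7e-05, adjusted over 10 relations 7e-04; rho = -0.67, adjusted p = 0.0014). Without IVF female replicate 4 and in vivo male replicate 3, the 2 libraries farthest from the median share, r was -0.72. Within types r was -0.63 in NT, -0.85 in IVF and 0.26 in in vivo libraries, so the relation was not seen among the 6 in vivo libraries. miR-423-5p was also lower in deeper libraries (r = -0.47, permutation p = 0.0101, adjusted p = 0.0337; rho = -0.62, adjusted p = 0.0032), and r was -0.69 without NT female replicate 3 and in vivo male replicate 3. Within types that r was -0.37 in NT, -0.48 in IVF and -0.63 in in vivo libraries.

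Apart from miR-191 and miR-423-5p no member was related to depth past the threshold, with r from 0.11 to 0.24. Under TMM the other members showed no relation to the rRNA-like share past the threshold. r was -0.35 for miR-423-3p (permutation adjusted p = 0.162), -0.22 for miR-191 (0.419), 0.20 for miR-107 (0.440) and 0.09 for miR-103 (0.634). With library totals alone, where the rRNA-like counts dilute all others, r was -0.72 for miR-191 and -0.69 for miR-423-3p (permutation adjusted p = 0.0002 each), and that of miR-103 turned to -0.28. The choice of scaling therefore decides whether miR-191 and miR-423-3p follow the share, but not whether miR-423-5p does, at -0.77 with totals alone.

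**Figure D5:**
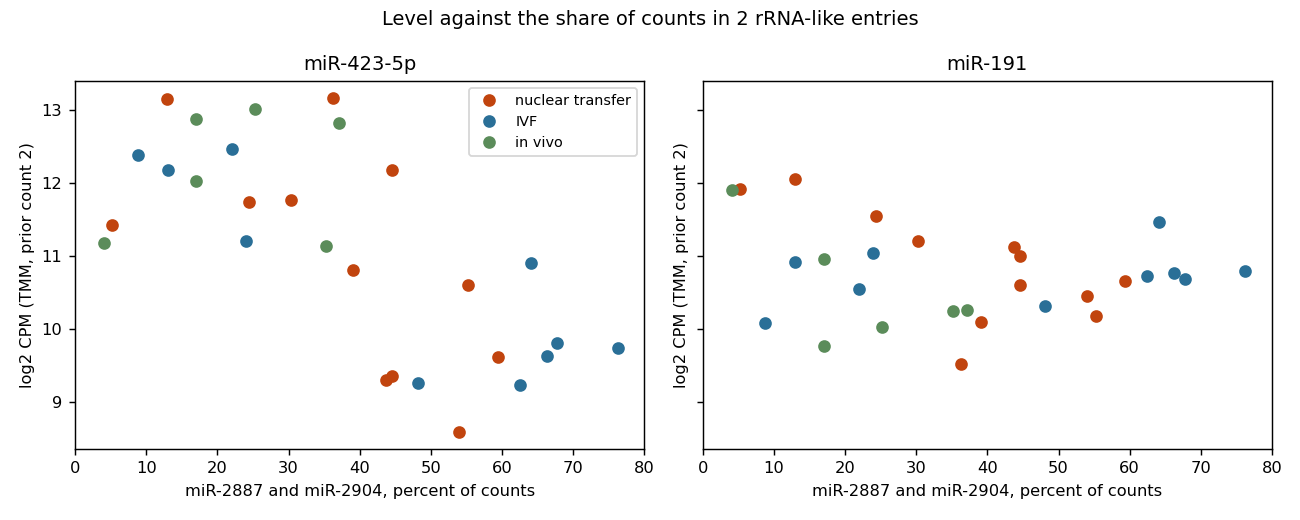
log2 CPM of reference-type miRNAs against the percent of counts in miR-2887 and miR-2904, 1 point a library, coloured by conceptus type. miR-423-5p declines along the axis (r = -0.69 over 28 libraries).

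The miRNAs most like miR-423-5p were miR-92b (r = 0.87), miR-1468 (r = 0.82) and miR-125a (r = 0.81), and those most like miR-423-3p were miR-1307 (r = 0.78), miR-320a (r = 0.73) and miR-744 (r = 0.70). The 2 arms shared none of these. miR-107 was least tied to any other miRNA, its best matches being miR-26b (r = 0.60), miR-652 (r = 0.55) and miR-148b (r = 0.53). All are over 28 libraries and 235 miRNAs, as a description.

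Paired as references, miR-103 with miR-191 kept the steadiest ratio, with an SD of 0.75 on the log2 scale and a 7.96-fold span. miR-191 with miR-423-3p followed at 0.80 and a 7.00-fold span. The least steady pair was miR-107 with miR-423-5p at 2.23, and miR-103 with miR-423-5p spanned 97.4-fold at an SD of 1.86. The mean SD of a member's ratios to the other 4, the M value of the geNorm method, was 1.09 for miR-191, 1.24 for miR-103, 1.24 for miR-423-3p, 1.56 for miR-107 and 1.71 for miR-423-5p. Leaving out the sparse miR-107, it was 1.04 for miR-191, 1.09 for miR-423-3p, 1.30 for miR-103 and 1.54 for miR-423-5p.

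Scaling an even miRNA to each member in turn shows what these spreads do to a comparison. The miRNA used, miR-21-5p, was among the most even under TMM in these same data, so its spread by TMM is low from the start. miR-21-5p, scaled by TMM, differed by 0.13 on the log2 scale for NT minus in vivo, with an SD within groups of 0.48. Scaled to miR-191 instead, the difference was -0.25 with an SD of 0.74. Scaled to miR-103 it was -0.55 (SD 0.90), to miR-107 -0.88 (SD 1.18), to miR-423-3p 0.21 (SD 0.85) and to miR-423-5p 1.15 (SD 1.44). For IVF minus in vivo the same miRNA gave 0.21 by TMM, 0.06 against miR-191, -0.56 against miR-103, -1.32 against miR-107, 1.24 against miR-423-3p and 1.79 against miR-423-5p. The direction and the size of the apparent difference of miR-21-5p thus depended on which of the 5 served as the reference. For the uneven let-7a-5p the SD within groups was 1.14 by TMM, 1.09 against miR-191 and 1.07 against miR-423-3p. Against miR-423-5p, miR-103 and miR-107 the SD of let-7a-5p was 1.19, 1.52 and 1.59, so scaling to a member did not always add spread.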

How the data were processed

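The authors deposited EV values as whole counts per miRNA, not normalized, in 28 libraries. The submitters' processing notes name the build ARS-UCD1.2 and, as tools, cutadapt, Bowtie, STAR, featureCounts and DESeq2. No source used here gives their roles, versions or the rule for reads that match more than 1 miRNA. Per the labels' protocols inserts were selected by size. Endometrium counts were not used. Titles gave type and sex. Each library carries its own animal number in the labels, and no pair within a group agreed within sampling noise (lowest chi-square per degree of freedom 34.3). Molecules were not tagged, so intervals and floors on counts cover counting error only.

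Counts were fitted in edgeR 4.0.16 (R 4.3.3) with TMM, filterByExpr (minimum count 10, minimum total 15) and the two-sided quasi-likelihood F test on 6 group means, with p-values adjusted by Benjamini-Hochberg and called under 0.05. A type difference is the mean of its male and female differences. Male against female within NT was fitted on the 12 NT libraries alone. Log2 CPM used a prior count of 2, and ratios a pseudocount of 0.5. Permutation tests were exact, or used 100000 resamples for correlations and for male against female. The fits were tested on simulated data. Alternatives were DESeq2 1.42.0, limma 3.58.1 voom, other scalings, filters and pseudocounts, a covariate, a replicate block and leaving out libraries; leaving out the shallowest libraries, and the NT sex difference in the fit of all 28, were added after the data were seen. The members and lists were chosen with earlier results of these data known. Named miRNAs are the 5 members, the 3 tested miRNAs with the highest r to each, the most even ones, and listed references, relatives, neighbours and markers.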

Additional observations from a re-analysis of the deposited data

Results flagged for a closer look

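In NT males the log2 ratio of miR-423-5p to miR-423-3p was -0.062 in replicate 7, against -1.40 to -1.05 in the other 6 libraries. That library lies farther from the others than a group of 7 usually allows (Dixon's test). It had the lowest share of miR-2887 and miR-2904 among NT males, at 30.3% of counts, and its miR-423-5p level of 3458 CPM was the highest of the 7. Across the 35 tests of the members and their ratios, some on overlapping groups, this was the 1 flag, and chance gives about 1 in 20, or 1.75.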

How the results depend on the processing

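Depth limits miR-107 most. Of 320 single-miRNA values under settings other than leaving out 1 library, 297 kept their call and, where they had one, their direction. Values of the joint and interaction tests have no direction. In the main fits miR-423-5p in NT males against NT females was the only member called, so most values had no call to lose. DESeq2 and voom called 0 miRNAs for NT against IVF (main value 3) and for NT against in vivo (main value 1). For IVF against in vivo (main value 0) DESeq2 called 13 and voom 22, and in the joint test of types (main value 0) DESeq2 called 1 and voom 8, with 1 member in both voom results (miR-423-5p, joint adjusted p = 0.0422). Without the low count filter 5 were called for NT against IVF, 6 for NT against in vivo, 6 for IVF against in vivo, 15 in the joint test and 63 for NT males against NT females (NT sex, main value 40). Totals alone gave 6 for NT against in vivo and 1 in the joint test. NT against IVF fell to 0 without miR-2887 and miR-2904. With log2 of their share as covariate NT against IVF, NT against in vivo and NT sex gave 0, and 0 members. Without libraries under 50000 counts NT against IVF and NT against in vivo gave 0. In the fit of all 28 libraries NT sex gave 20, with miR-423-5p at -2.14 (edgeR adjusted p = 0.0381).

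Replicate numbers recur across groups but do not pair the libraries: of 53 same-number pairs 20 correlated above 0.1, median r 0.007. The replicate block gave 6 calls for NT against in vivo and 4 in the joint test; miR-423-5p in NT sex was -2.35 (edgeR adjusted p = 0.0157). Leaving out 1 library at a time gave 0 to 4 calls for NT against IVF, 0 to 5 for NT against in vivo, 0 to 21 for IVF against in vivo (21 without IVF male replicate 3; members 0 to 1), 0 to 14 in the joint test (14 without the same library), and 16 to 50 in NT sex (16 without NT female replicate 3 or NT male replicate 3; members 0 to 1).

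Log2 differences that changed sign were small and passed no threshold. miR-423-3p, NT over in vivo, was 0.013 by DESeq2, 0.015 with its size factors, 0.040 without the filter, 0.0044 with the covariate, 0.079 with the block, and -0.25 to 0.071 leaving out 1 library. miR-191, male over female, was 0.0048 by DESeq2 and 0.0017 with its size factors. miR-103, NT over IVF, was 0.13 by voom, 0.16 with totals, 0.017 without the filter, 0.053 without miR-2887 and miR-2904, and -0.28 to 0.40 leaving out 1 library. miR-423-5p, NT over IVF, was -0.050 with totals and -0.061 to 1.02 leaving out 1. miR-191, IVF over in vivo, was -0.36 with totals, -0.0099 without miR-2887 and miR-2904, -0.11 with the block, -0.14 without libraries under 50000 counts and -0.20 to 0.37 leaving out 1. miR-103 in NT sex was -0.17 with totals, -0.064 with the block, -0.12 in the fit of all 28 and -0.49 to 0.39 leaving out 1; male over female it was -0.38 to 0.16. miR-191 in NT sex was 0.080 with the covariate. The log2 ratio of miR-103 to miR-107, NT minus in vivo, was 0.26 without libraries under 5 counts, and leaving out 1 gave -0.76 to 0.11, -0.16 to 0.25 for NT minus IVF and -0.83 to 0.040 for IVF minus in vivo. With totals alone r was -0.057 for miR-107, 0.24 for miR-191 and -0.090 for miR-423-3p with log2 total, and -0.28 for miR-103, -0.10 for miR-107, -0.72 for miR-191 and -0.69 for miR-423-3p with the rRNA-like share. The causes were not tested. By SD rank of 240, miR-191 stayed between 8 and 15 and miR-423-5p between 114 and 206 under RLE, totals alone and a prior count of 0.5; the unfiltered ranking is not informative, since near-empty entries have low SD.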
